A study of Mus musculus with 127 samples.

Results

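Fam132b, the older symbol of the gene for erythroferrone (Erfe), was 1 of the 24320 gene symbols in a table of RPKM values (reads scaled to transcript length and to the reads of the cell) from single mouse marrow cells. The gene was taken by its symbol and had 1 row, NM_173395, of the 34898 transcript rows. All cells were labelled erythroblasts of C57BL/6J mice. Of these, 48 came from mice in which Flvcr was deleted, 31 from wild-type mice given erythropoietin (EPO), and 48 from wild-type mice with no treatment named. The Cre driver or other means of deletion, the EPO dose and timing, and the age of the mice are not stated in the labels. Nor do the labels say how many animals gave the cells, so each group counts as 1 sample. No test between groups was made, every SD is over cells, and every interval covers counting error alone.

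Erythroferrone is a hormone of the C1q and TNF related family that erythroblasts secrete when EPO acts on them through JAK2 and STAT5. It binds bone morphogenetic proteins (BMPs) and so lowers hepcidin in the liver, which lets iron leave stores and the gut for the making of hemoglobin. FLVCR1, the product of the deleted gene, carries heme out of the cell, and the comparison sets cells that lack this exporter, and cells under EPO, against wild-type cells.

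The start of Erfe lies on chromosome 1, on the plus strand. The bases before the first annotated start of any RefSeq model are shown because EPO acts through STAT5 and the study concerns GATA1. They cover chr1:91366180-91366304 of build GRCm38.p6 (RefSeq), a newer build than the mm9 that the expression table uses, and capitals mark matches to CACCC, the core of the box that KLF1 binds, read on either strand.
Erfe upstream: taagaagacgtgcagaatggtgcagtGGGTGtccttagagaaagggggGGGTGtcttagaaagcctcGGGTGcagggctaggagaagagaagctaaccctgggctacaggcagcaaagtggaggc
With both strands searched, the 300-base RefSeq window of the gene had 3 matches to CACCC, all on the minus strand and so printed as GGGTG. They were all within the bases shown and none overlapped another, and 57.5% of the 32851 windows of that length held at least 1. Other motifs were counted in the same window. It had 0 matches to AGATAA, a form of the GATA motif found in 11.2% of windows. The form TGATAA (9.05% of windows) had 0 matches too. The same held for AGATAG (8.95% of windows). It also held for TGATAG (7.29% of windows), and 29.8% of windows had at least 1 of these forms. It had 0 matches to the STAT motif TTCNNNGAA, which was in 8.30% of windows. These letters are a description of this window and were not set against any binding data.

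Cells carried a class letter, A to D, and the median imaged intensity of the red cell surface protein Ter119 rose with the letter in each group. The ranges of the letters did not overlap in Flvcr-deleted and wild-type cells but did in EPO-treated cells, where the 4 cells of label code SCP6 lay below every other cell of their letter, and the letters did not mark the same intensity in each group. In class C the median normalized Ter119 was 0.608 in Flvcr-deleted cells, 0.281 in EPO-treated cells and 0.643 in wild-type cells. Flvcr-deleted cells all had label code SCP2 and wild-type cells SCP3, while 27 EPO-treated cells had SCP7 and 4 had SCP6, so the code and the group cannot be told apart. Detection meant a value of 1 RPKM or more. Cells had a median of 1069 detected genes in the Flvcr-deleted group, 1441 in the EPO-treated group and 2422 in wild type. At least 3 of 12 erythroblast markers were detected in 47 of 48 Flvcr-deleted cells, 29 of 31 EPO-treated cells and 46 of 48 wild-type cells. At least 3 granulocyte and monocyte markers were found in 1 Flvcr-deleted, 3 EPO-treated and 4 wild-type cells, and at least 3 mast cell and basophil markers in 1, 1 and 3 cells of the same groups. These 8 cells in all were of class A, 3 of them also had 3 or more erythroblast markers, and 0 had Fam132b. The deleted gene, listed as Mfsd7b, was detected in 0 Flvcr-deleted, 0 EPO-treated and 1 wild-type cell, so its level could not check the labels.

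Fam132b reached that limit in 12 of 48 Flvcr-deleted cells (25.0%, exact Clopper-Pearson 95% interval 13.6 to 39.6%). The share was 11 of 31 (35.5%, 19.2 to 54.6%) under EPO and 3 of 48 (6.25%, 1.31 to 17.2%) in wild type. The intervals of EPO-treated and wild-type cells did not overlap, while those of Flvcr-deleted and wild-type cells did. With 1 sample a group, neither overlap nor its lack is a test between conditions. At this limit the hormone transcript was found in a minority of cells in every group.

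Among the cells that had it, Fam132b was abundant in some and near the detection limit in others. Detected values ran from 1.11 to 260.2 RPKM in Flvcr-deleted cells (median 42.1 RPKM) and from 1.23 to 226 RPKM in EPO-treated cells (median 41.8 RPKM). The 3 wild-type cells had 1.03, 3.35 and 13.7 RPKM. The ranges of Flvcr-deleted and EPO-treated positive cells covered each other almost fully, and every wild-type positive cell lay below both medians. The 2 highest cells held 53.1% of the summed Fam132b RPKM in Flvcr-deleted cells, 55.2% in EPO-treated cells and 91.4% in wild-type cells. A group mean of this gene is thus set by very few cells.

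**Figure D1:**
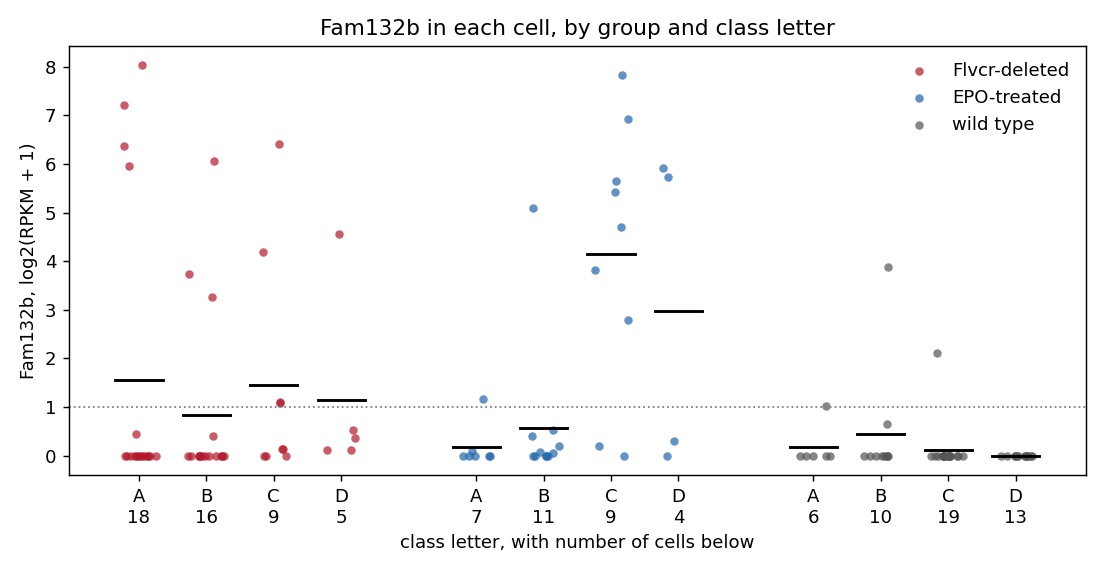
Fam132b in every cell as log2(RPKM + 1), by group and class letter, with the number of cells under each letter; each point is 1 cell, black bars are means over cells and the dotted line is the detection limit of 1 RPKM. Most cells lie at or near 0, the EPO-treated positive cells gather in classes C and D, and the 4 highest Flvcr-deleted class A cells lie between 61.6 and 260.2 RPKM.

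Positive cells were also counted by class letter in each group. Flvcr-deleted cells had Fam132b in 4 of 18 class A, 3 of 16 class B, 4 of 9 class C and 1 of 5 class D cells. Under EPO the counts were 1 of 7 class A, 1 of 11 class B, 7 of 9 class C and 2 of 4 class D cells. In wild type they were 1 of 6 class A, 1 of 10 class B, 1 of 19 class C and 0 of 13 class D cells. The 0 of 13 allows a share of up to 23.1% by 3 cells of the total, and its exact two-sided interval reaches 24.7%.

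By letter, class C held the highest share in Flvcr-deleted cells (44.4%, exact interval 13.7 to 78.8%) and in EPO-treated cells (77.8%, 40.0 to 97.2%). Wild-type class C cells stood at 5.26% (0.133 to 26.0%). Among Flvcr-deleted class A cells, those whose class label had the suffix a had the same share as class C, 4 of 9. The positive Flvcr-deleted class C cells also included values close to the detection limit, 1.11 and 1.16 RPKM. In class C the interval of EPO-treated cells lay wholly above that of wild-type cells, whereas the interval of Flvcr-deleted cells overlapped both. These intervals cover counting error over the cells of 1 sample a group, so their overlap does not compare the conditions. In classes A and B the intervals of all 3 groups overlapped widely.

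**Figure D2:**
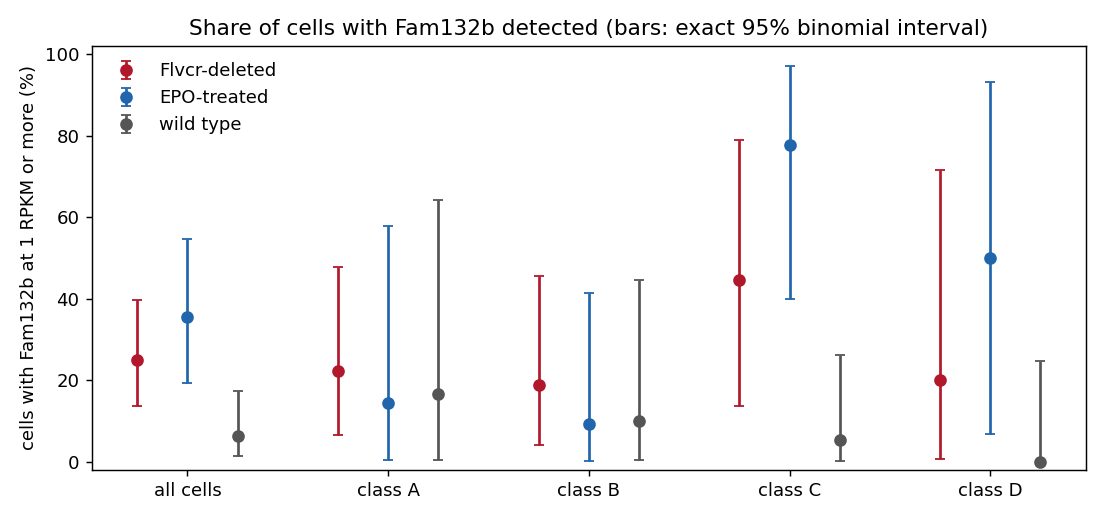
Percent of cells with Fam132b at 1 RPKM or more, over all cells and in each class letter, for Flvcr-deleted, EPO-treated and wild-type cells; bars are exact 95% binomial intervals. EPO-treated class C cells stand at 77.8% and wild-type class C cells at 5.26%, while the bars of classes A and B overlap.

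The 4 positive Flvcr-deleted class A cells had 61.6, 82.1, 147 and 260.2 RPKM. All 4 carried the class suffix a, in which 4 of 9 cells were positive, whereas 0 of 9 class A cells with suffix d were, which allows a share of up to 33.3%. In 7 of these suffix d cells 1 read was worth 1 RPKM or more, so suffix and read depth cannot be told apart. The labels do not explain the suffix. The positive class B cells of this group had 8.65, 12.4 and 66.2 RPKM, the class C cells 1.11, 1.16, 17.1 and 84.0 RPKM, and the class D cell 22.5 RPKM. The 2 highest values of the group thus came from class A, the class of lowest Ter119.

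In EPO-treated cells the single positive class A cell had 1.23 RPKM and the single positive class B cell 33.4 RPKM. The 7 class C cells had 5.92, 13.1, 25.2, 41.8, 48.9, 121 and 226 RPKM. Both positive class D cells were at a like level, 52.05 and 59.1 RPKM. The 3 wild-type values came from class A (1.03 RPKM), class C (3.35 RPKM) and class B (13.7 RPKM).

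On the log2(RPKM + 1) scale the mean level was highest in EPO-treated class C cells (4.15 ± 2.74, SD over 9 cells) and EPO-treated class D cells (2.98 ± 3.28, 4 cells). Flvcr-deleted cells followed, with 1.56 ± 2.96 in class A (18 cells), 1.45 ± 2.29 in class C (9 cells), 1.14 ± 1.92 in class D (5 cells) and 0.84 ± 1.83 in class B (16 cells). Below them came EPO-treated class B cells at 0.58 ± 1.51 and wild-type class B cells at 0.45 ± 1.22. EPO-treated class A cells (0.18), wild-type class A cells (0.17), wild-type class C cells (0.11) and wild-type class D cells (0.00) closed the order. Every neighbouring pair in this order of 12 differed by less than the larger of its SDs over cells.

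Reads behind these values could be estimated for Flvcr-deleted and wild-type cells from the smallest step between values. The detected Flvcr-deleted cells held an estimated 8 to 1007 Fam132b reads, and the 3 wild-type cells 8, 42 and 101 reads. A further 8 Flvcr-deleted cells had a value above 0 but under 1 RPKM, each equal to 1 to 4 reads, and 4 of them were the remaining class D cells. In wild-type cells 1 cell had such a value, 0.569 RPKM, or 8 reads. With any value above 0 counted, 20 of 48 Flvcr-deleted cells, 19 of 31 EPO-treated cells and 4 of 48 wild-type cells had the transcript. Of the 36 Flvcr-deleted cells without detected Fam132b, 7 were so shallow that 1 read was worth 1 RPKM or more, against 0 such wild-type cells. All 7 were class A cells of suffix d. The median estimated depth was 2390000 reads in the 12 positive and 2830000 reads in the 36 other Flvcr-deleted cells.

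The number of genes detected did not separate positive cells from the rest in a uniform way. Its median was 1237.5 in positive and 1007 in the other Flvcr-deleted cells, 1424 in positive and 1445.5 in other EPO-treated cells, and 3398 in positive and 2384 in other wild-type cells. The 3 positive wild-type cells had 3324 to 4047 genes detected. Globin transcripts took a median of 81.6% of summed RPKM in positive and 77.8% in the other Flvcr-deleted cells, 68.5% in positive and 38.1% in other EPO-treated cells, and 32.5% in positive and 66.8% in other wild-type cells. The part of depth and globin content in the Fam132b shares was not tested.

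Positive cells carried erythroblast markers, with 8 to 11 of the 12 erythroblast markers in Flvcr-deleted cells, 7 to 12 in EPO-treated cells and 8 to 12 in wild-type cells. Of 13 granulocyte and monocyte markers, 1 positive Flvcr-deleted cell had 1 and the other positive cells of any group had 0. No positive cell had a marker of B cells, T and NK cells or macrophages, and none had more than 2 markers of the megakaryocyte, mast cell or endothelial lists. The wild-type cell at 1.03 RPKM was the least typical, since globins made up 0.00115% of its summed RPKM.

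Set against other genes, the group differences of Fam132b were among the highest measured. The difference in detected share was averaged over the class letters with equal weight and compared over 5626 genes detected in at least 10 cells. Over classes A to D it was 18.4 percentage points for Flvcr-deleted minus wild-type cells (rank 22) and 29.8 points for EPO-treated minus wild-type cells (rank 10), while the median gene was at -16.6 and -14.3 points. These 2 contrasts share the wild-type cells. A difference of 20 points or more was found for 0.302% of genes in Flvcr-deleted and 0.48% in EPO-treated cells, and Fam132b was past it in EPO-treated cells alone. On the log2 scale the differences in mean level were 1.06 for Flvcr-deleted and 1.79 for EPO-treated minus wild-type cells.

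In B to D alone the share differences were 22.6 points in Flvcr-deleted cells (rank 28) and 40.5 points in EPO-treated cells, second to Cish at 42.6 points, with the median gene at -13.8 and -13.3 points. The 20-point mark was met there by 0.711% of genes in Flvcr-deleted and 0.533% in EPO-treated cells, and Fam132b was past it in both. The differences in mean level over B to D were 0.95 for Flvcr-deleted and 2.38 for EPO-treated minus wild-type cells. By class, the Flvcr-deleted minus wild-type share difference was 5.56 points in A, 8.75 points in B, 39.2 points in C and 20.0 points in D. The EPO-treated minus wild-type difference was -2.38 points in A, -0.909 points in B, 72.5 points in C and 50.0 points in D. With class C of EPO-treated cells left out, an alternative chosen after seeing the data, the EPO-treated minus wild-type difference over the other letters was 15.6 points (rank 84) and 1.04 on the log2 scale, against 29.8 points and 1.79 over A to D, so Fam132b was then under the 20-point mark.

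Because wild-type cells had more genes detected, the contrasts were also taken among cells of classes B, C and D in which 1000 to 2000 genes were detected. Fam132b was found there in 3 of 12 Flvcr-deleted cells (25.0%), 4 of 12 EPO-treated cells (33.3%) and 0 of 18 wild-type cells, which allows up to 16.7%. The differences were 25.0 points for Flvcr-deleted and 36.7 points for EPO-treated minus wild-type cells, against 22.6 and 40.5 points over all cells of these classes. Its rank among the 5626 genes was 311 for Flvcr-deleted and 74 for EPO-treated cells in this smaller set, well below 28 and 2 over all B to D cells, so its standing among genes changed with the choice of cells while its own difference changed little.

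**Figure D3:**
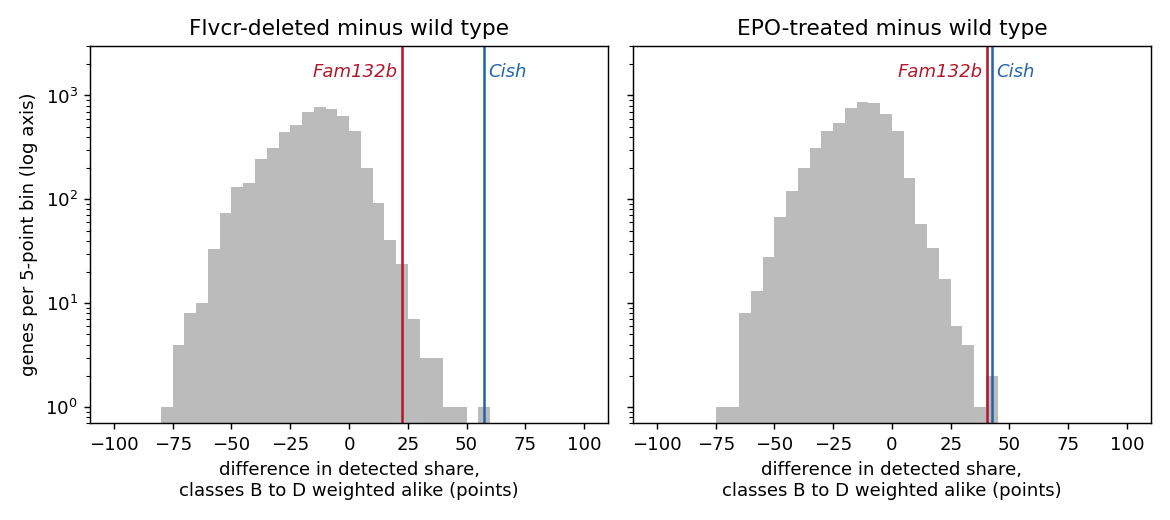
Difference in detected share over classes B to D for 5626 genes, in bins of 5 points on a log count axis, for Flvcr-deleted minus wild type and EPO-treated minus wild type; lines mark Fam132b (red) and Cish (blue). Fam132b lies at 22.6 points on the left and 40.5 points on the right, above the bulk of genes, which centers below 0 in both.

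Between the 2 conditions, Fam132b was on the lower side in Flvcr-deleted cells of classes C and D. The Flvcr-deleted minus EPO-treated share difference was -11.4 points over classes A to D and -17.9 points over B to D, with 7.94 points in A, 9.66 points in B, -33.3 points in C and -30.0 points in D. The difference in mean level was -0.73 over A to D and -1.43 over B to D on the log2 scale, and by class it was 1.38 in A, 0.26 in B, -2.70 in C and -1.85 in D. The median gene was at -0.947 points over B to D, and 5.44% of genes were lower by at least 20 points, a mark that Fam132b did not pass. The columns of EPO-treated cells were rounded to 2 decimals while the others were not, so a contrast with them also holds any difference in how the columns were made.

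Among 18 genes of the EPO receptor and STAT5 pathway, 9 were detected in enough cells to compare. In Flvcr-deleted cells 2 lay at least 20 points above wild type and 3 at least 20 points below it (classes B to D), and under EPO 2 lay above and 1 below. Shares higher than wild type by that much were found for 0.711% of all genes in Flvcr-deleted and 0.533% in EPO-treated cells. Shares lower than wild type by that much were common, at 34.3% of all genes in Flvcr-deleted and 31.2% in EPO-treated cells. The median of the 9 genes was -3.60 points in Flvcr-deleted and -5.87 points in EPO-treated cells. The 2 higher genes were in both cases Cish, a STAT5-induced inhibitor of cytokine signaling, and Pim1, a STAT5-induced kinase.

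Cish was detected in 20 of 48 Flvcr-deleted cells, 10 of 31 EPO-treated cells and 4 of 48 wild-type cells. Pim1 was found in 16 of 48 Flvcr-deleted (33.3%), 14 of 31 EPO-treated (45.2%) and 12 of 48 wild-type ones (25.0%). The counts of this paragraph take all cells of classes A to D alike, whereas the calls above gave classes B to D equal weight. By these counts Pim1 in Flvcr-deleted cells was under the 20-point mark. The cyclin gene Ccnd3 was on the lower side, with 19 of 48 Flvcr-deleted, 20 of 31 EPO-treated cells and 46 of 48 in wild type. Epor, the EPO receptor, was found in 7 of 48 Flvcr-deleted, 6 of 31 EPO-treated cells and 17 of 48 in wild type. Jak2, the kinase bound to that receptor, was found in 6 of 48 Flvcr-deleted, 9 of 31 EPO-treated cells and 20 of 48 in wild type. Socs1, Socs2 and Id1 were detected in 0 cells.

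Of all genes compared, Cish overlapped most with Fam132b cell by cell. It was detected in 14 of the 26 positive cells, and the cells with both made up a fraction of 0.304 of the cells with either. Next by this overlap came Ccrn4l, which encodes nocturnin (0.288), then Reep6 (0.279), Dync1i2 (0.279), Arf5 (0.277), Skiv2l2 (0.275), Bub1b (0.271) and 1600012H06Rik (0.269). Ccrn4l was detected in 68 cells in all, 21 of them positive for Fam132b. Among EPO-treated cells in B to D, Cish was detected in 8 of 10 cells with Fam132b and in 2 of 14 cells without it, a difference of 65.7 points. In Flvcr-deleted cells of the same classes the order was the other way, 3 of 8 cells with Fam132b against 13 of 22 without, or -21.6 points. In wild-type cells of these classes Cish was detected in 0 of 2 cells with Fam132b and 4 of 40 without. Of the 14 cells with both genes, 8 were EPO-treated, 3 were Flvcr-deleted class A cells, and 3 were Flvcr-deleted cells of classes C and D.

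Class letter moved with this overlap. Of the 10 EPO-treated cells with Fam132b 7 were class C, and of the 14 without it 10 were class B. Within class C, Cish was detected in 5 of 7 EPO-treated cells with Fam132b and 0 of 2 without. Within class C of Flvcr-deleted cells it was detected in 2 of 4 with Fam132b and 3 of 5 without, and within class A in 3 of 4 with and 1 of 14 without. Class B of Flvcr-deleted cells had Cish in 0 of 3 cells with Fam132b and 6 of 13 without. Class D of that group had Cish in 1 of 1 cell with Fam132b and 4 of 4 without. Few cells stand behind each of these counts.

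**Figure D4:**
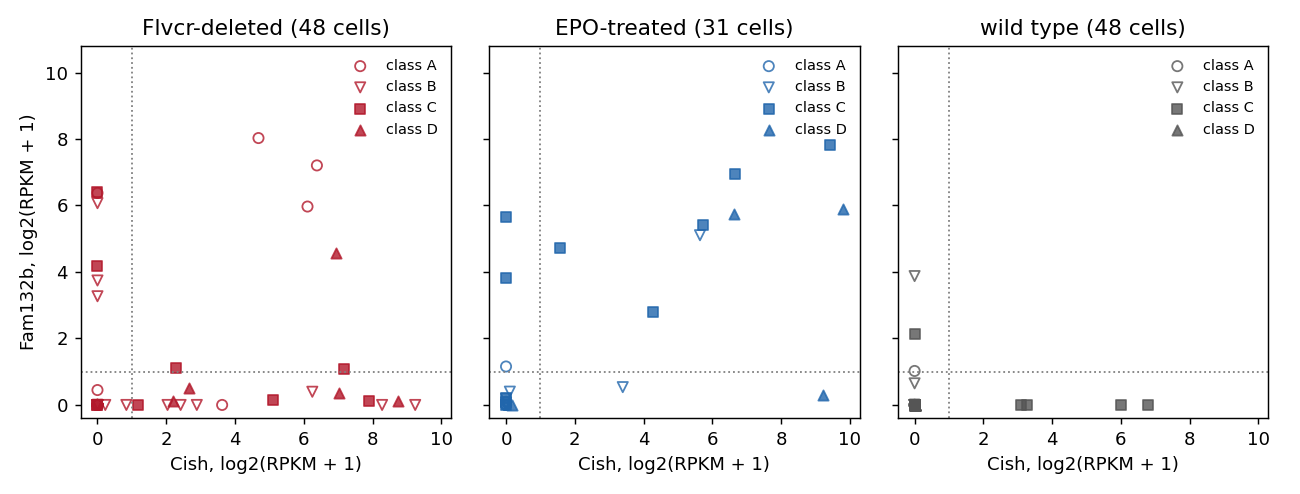
Cish (x) against Fam132b (y) in each cell, both as log2(RPKM + 1), for Flvcr-deleted, EPO-treated and wild-type cells, with class letters as symbols and dotted lines at 1 RPKM. Under EPO 8 cells of classes B to D have both genes; in Flvcr-deleted cells many have Cish without Fam132b, and in wild-type cells 0 have both.

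Co-detection was called where the share of cells with a gene differed between cells with and without Fam132b by a mean of at least 20 points over Flvcr-deleted and EPO-treated cells, with the same sign in both. Over classes B to D, 107 of 5625 genes (1.9%) were higher beside Fam132b by this rule and 207 (3.68%) were lower. The median gene was at -2.71 points. These comparisons rest on 8 cells with and 22 without Fam132b in Flvcr-deleted cells, and 10 with and 14 without in EPO-treated cells. Class letters B to D were pooled within each group. Of the 10 EPO-treated cells with Fam132b 7 were class C, and of the 14 without it 10 were class B. The calls of this and the following paragraphs thus cannot be told apart from class.

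The gene with the highest mean difference was Ckap2l, a protein of the mitotic spindle. It was found in 4 of 8 Flvcr-deleted cells with Fam132b and 2 of 22 without, and in 9 of 10 EPO-treated cells with it and 5 of 14 without. Depdc1a, another gene of mitosis, was detected in 5 of 8 Flvcr-deleted cells with Fam132b and 5 of 22 without, and in 8 of 10 EPO-treated cells with it and 5 of 14 without. In wild-type cells of classes B to D, where Fam132b was rare, Ckap2l was detected in 33 cells without Fam132b and Depdc1a in 31 of the 40. Dbf4, which activates the kinase that fires replication origins, was next, with 2 of 8 Flvcr-deleted cells with Fam132b and 4 of 22 without, and 7 of 10 EPO-treated cells with it and 0 of 14 without. These leading values depended on the detection limit. With any RPKM above 0 counted as detected, the mean difference was 7.11 points for Ckap2l (47.6 at 1 RPKM), 1.32 points for Dbf4 (38.4 at 1 RPKM) and 33.4 points for Depdc1a (42.0 at 1 RPKM). At 10 RPKM it was 15.3 points for Ckap2l, 36.0 points for Dbf4 and 1.11 points for Depdc1a.

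Hsp90b1, Sec11c and Sec62 were among the extremes too. Hsp90b1, a chaperone of the endoplasmic reticulum, was detected in 6 of 8 Flvcr-deleted cells with Fam132b and 10 of 22 without, and in 9 of 10 EPO-treated cells with it and 6 of 14 without. Sec11c, a subunit of the signal peptidase that trims secreted proteins, was detected in 7 of 8 Flvcr-deleted cells with Fam132b and 7 of 22 without, and in 6 of 10 EPO-treated cells with it and 6 of 14 without. Sec62, of the protein translocation channel, ran the other way, with 2 of 8 Flvcr-deleted cells with Fam132b and 19 of 22 without, and 6 of 10 EPO-treated cells with it and 11 of 14 without. With any RPKM above 0 counted, Sec11c was at 14.6 points as the mean of both groups, against 36.4 at 1 RPKM. Sec62 was at -0.81 points by that count and at 4.00 points at 10 RPKM, against -40.0 at 1 RPKM. Of 12 listed genes of hormone processing and secretion, which hold none of these 3, 8 were compared. Of those 0 were higher and 1 was lower, where 1.9% of all genes were higher and 3.68% lower. The lower one was Spcs1, another subunit of the signal peptidase. It was found in 5 of 8 Flvcr-deleted cells with Fam132b and 18 of 22 without, and in 4 of 10 EPO-treated cells with Fam132b and 10 of 14 without. Furin, a protease that cleaves secreted precursors, was detected in 1 cell of the whole table.

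Colec12, Sertad2 and Klf3 completed the 8 highest genes, at 36.3, 35.6 and 35.2 points as the mean of both groups. With any RPKM above 0 counted, Colec12 was at 7.54 points. Klf3, a repressor of the KLF family, was detected in 6 of 8 Flvcr-deleted cells with Fam132b and 7 of 22 without, and in 7 of 10 EPO-treated cells with it and 6 of 14 without. The lowest gene beside Fam132b was Atp6ap1, an accessory subunit of the vacuolar proton pump. It was found in 1 of 8 Flvcr-deleted cells with Fam132b and 10 of 22 without, and in 1 of 10 EPO-treated cells with it and 8 of 14 without. Nfia and Tyms were at -36.6 and -35.0 points as the mean of both groups, and at -13.8 and 2.44 points with any RPKM above 0 counted.

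**Figure D5:**
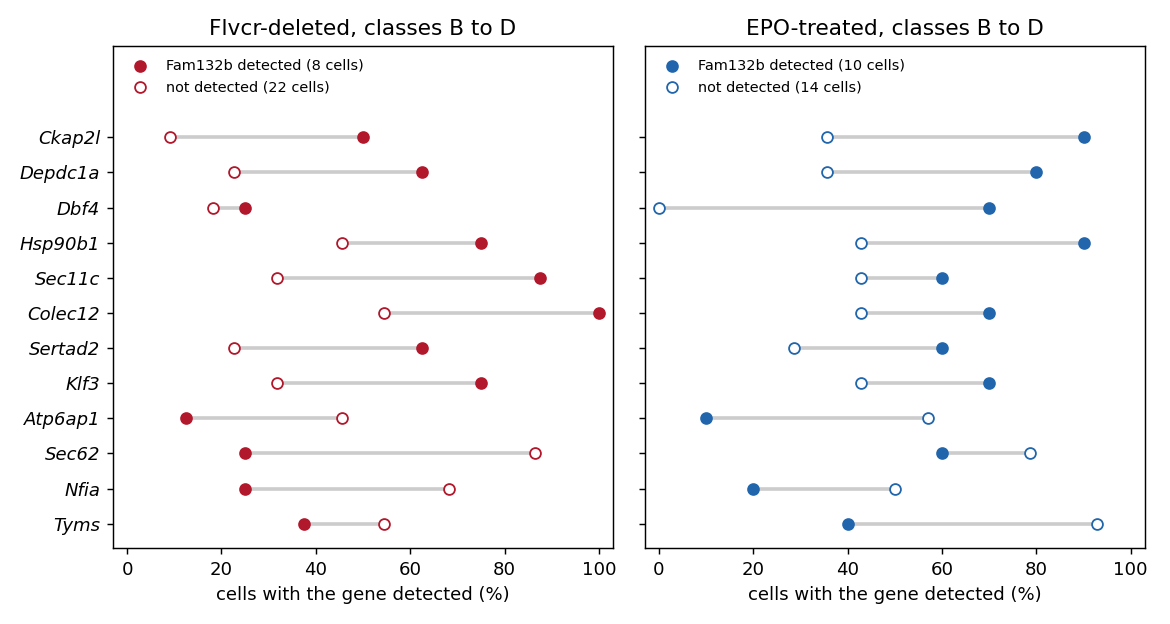
Percent of class B to D cells with each gene detected, in cells with Fam132b (filled) and without it (open), for Flvcr-deleted and EPO-treated cells; genes are the 8 highest and 4 lowest by the mean difference of both groups. Ckap2l is at 50.0% against 9.09% in Flvcr-deleted cells and 90.0% against 35.7% in EPO-treated cells, and Dbf4 is at 70.0% against 0.0% in EPO-treated cells.

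Of 16 globin and heme synthesis genes 0 were higher and 2 were lower beside Fam132b, where 1.9% of all genes were higher and 3.68% lower. Fech, which puts iron into heme, was detected in 2 of 8 Flvcr-deleted cells with Fam132b and 12 of 22 without, and in 5 of 10 EPO-treated cells with it and 12 of 14 without. Uros, an earlier enzyme of the pathway, was detected in 4 of 8 Flvcr-deleted cells with Fam132b and 16 of 22 without, and in 5 of 10 EPO-treated cells with it and 11 of 14 without. Within letters the Uros difference was not uniform. Under EPO it was found in 1 of 1 class B cell with Fam132b and 9 of 10 without, 3 of 7 and 1 of 2 in class C, and 1 of 2 and 1 of 2 in class D. In Flvcr-deleted cells the counts were 2 of 3 and 8 of 13 in class B, 2 of 4 and 5 of 5 in class C, and 0 of 1 and 3 of 4 in class D. Alas2, which starts heme synthesis in erythroid cells, was detected in 7 of 8 Flvcr-deleted cells with Fam132b and 19 of 22 without, and in 10 of 10 EPO-treated cells with it and 12 of 14 without. Hbb-b1, the adult beta globin gene, was detected in every cell of both sets.

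Of 12 erythroid transcription factor genes compared, 2 were higher and 1 was lower, beside the same 1.9% and 3.68% of all genes. Sox6, a repressor of embryonic globin genes, was detected in 5 of 8 Flvcr-deleted cells with Fam132b and 10 of 22 without, and in 8 of 10 EPO-treated cells with it and 5 of 14 without. By class, Sox6 ran the other way in Flvcr-deleted class B, in 0 of 3 cells with Fam132b and 6 of 13 without. It did so too in EPO-treated class D, in 1 of 2 with and 2 of 2 without, and was higher beside Fam132b in the other letters from B to D. Zfpm1, the GATA1 cofactor FOG1, was detected in 4 of 8 Flvcr-deleted cells with Fam132b and 8 of 22 without, and in 5 of 10 EPO-treated cells with it and 2 of 14 without. Bcl11a, also a repressor of globin genes, was the lower one, in 2 of 8 Flvcr-deleted cells with Fam132b and 7 of 22 without, and in 0 of 10 EPO-treated cells with it and 5 of 14 without. Gata1, the master regulator of the lineage, was detected in 3 of 8 Flvcr-deleted cells with Fam132b and 11 of 22 without, and in 6 of 10 EPO-treated cells with it and 7 of 14 without. Gata1 was found in 17 of 48 Flvcr-deleted, 14 of 31 EPO-treated cells and 43 of 48 in wild type, so its share was below wild type in both, as was that of the median gene. Of the 26 positive cells, 13 had both genes.

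Of 11 genes of iron uptake, storage and export compared, 0 were called in either direction. Tfrc, the transferrin receptor through which erythroblasts take up iron, was detected in 8 of 8 Flvcr-deleted cells with Fam132b and 20 of 22 without, and in 9 of 10 EPO-treated cells with it and 13 of 14 without. Of 8 stress response genes 2 were higher and 1 was lower, beside 1.9% and 3.68% of all genes. The lower one was Ddit3, a transcription factor of that response, found in 2 of 8 Flvcr-deleted cells with Fam132b and 11 of 22 without, and in 2 of 10 EPO-treated cells with it and 8 of 14 without. Nupr1, a small stress-induced nuclear protein, was detected in 6 of 8 Flvcr-deleted cells with Fam132b and 8 of 22 without, and in 2 of 10 EPO-treated cells with it and 1 of 14 without. Atf4, the transcription factor at the center of that response, was the other higher gene, in 7 of 8 Flvcr-deleted cells with Fam132b and 16 of 22 without, and in 9 of 10 EPO-treated cells with it and 8 of 14 without. Of 8 late erythroblast genes 1 was lower, Epb4.2, which encodes a protein of the red cell membrane, and 0 were higher, beside the same shares of all genes. Of 2 early progenitor genes and 9 EPO receptor and STAT5 genes compared, 0 were called. The median co-detection difference was -2.27 points for the EPO receptor and STAT5 list, -2.18 points for the transcription factors, 0.0 points for the heme and iron lists, -5.39 points for hormone processing and 6.65 points for the stress response, beside -2.71 points for all genes.

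Of all 24320 genes, 55.9% were detected in 0 cells of this table, Pcbp1, a widely used RNA-binding and iron-carrying protein, among them, so a 0 here says little about a gene. Beside that share, 10 of 16 genes of BMP ligands and BMP signaling (62.5%) were detected in 0 cells, among them Bmp2, Bmp6 and Smad1, and the most frequent, Smad5, in 9 cells. Hamp, the hepcidin gene, was detected in 0 cells, as were 7 of 8 genes of the hepcidin list (87.5%). The exception was Tfr2, transferrin receptor 2, in 11 of 48 Flvcr-deleted, 6 of 31 EPO-treated cells and 11 of 48 in wild type. Of 9 other factors that erythroid cells are known to secrete, 4 (44.4%) were at 0, Gdf15 included, and the most frequent was in 5 cells.

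Of the 13 genes of the C1q and TNF related family in the table, other than Fam132b, 11 (84.6%) were detected in 0 cells, where 55.9% of all genes were. Fam132a, which shares the name stem, was detected in 11 of 48 Flvcr-deleted, 7 of 31 EPO-treated cells and 22 of 48 in wild type, so its share was highest in wild type, the direction of the median gene. Both were detected in 7 cells.

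The genes whose mean levels followed Fam132b most closely over the 12 combinations of group and class were Gt(ROSA)26Sor (Pearson's r 0.79), Uso1 (0.77), Hbb-y (0.76), 2310036O22Rik (0.75) and Pim1 (0.75). These values are a description: the 12 points hold 4 to 19 cells each, and points of 1 group share its libraries and their depth. Cell by cell, Gt(ROSA)26Sor was detected in 0 of 8 Flvcr-deleted class B to D cells with Fam132b and 8 of 22 without. Under EPO it was detected in 4 of 10 such cells with Fam132b and 3 of 14 without. Uso1, a tether of vesicles on their way to the Golgi, was detected in 7 of 10 EPO-treated class B to D cells with Fam132b and 1 of 14 without, and in 1 of 8 Flvcr-deleted cells with it and 4 of 22 without. Hbb-y, an embryonic beta-like globin gene, was highest in EPO-treated class D cells, at 7.10 on the log2 scale, and was at 0.00 in class A of every group.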

How the data were processed

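Single marrow cells were captured on a microfluidic system, imaged for Ter119, and made into SMART-Seq cDNA and Nextera XT libraries, per the labels' protocols. The authors deposited 1 table of RPKM values per RefSeq transcript. TopHat2 version 2.0.9 and build mm9 are named in the submitters' processing notes, and the counting tool is not given in the sources used here. RPKM divides by a cell's total, so abundant globin lowers other genes.

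Cells were grouped by label, and 4 columns that matched no label were not used. A symbol with several rows took its row of highest mean. Detection was 1 RPKM or more, levels were log2(RPKM + 1), and genes compared were detected in at least 10 cells. Group differences weighted class letters alike. Group differences were called at 20 percentage points, and co-detection at a mean of 20 points over both groups with the same sign in each. Reads per cell were estimated from the smallest common step between values in Flvcr-deleted cells (median 2680000, 57300 to 4880000) and wild-type cells (4000000, 2010000 to 5350000); the depth of EPO-treated cells is unknown, since rounding hides the step. Intervals were exact (Clopper-Pearson, 95%), and 0 cells allow 3 of the total. Functions were tested on simulated data.

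Named genes were Fam132b, Cish, Gata1, Alas2, Hbb-b1, Epor, Tfrc and Mfsd7b, up to 6 genes per list, the 8 genes of highest overlap, the 8 highest and 5 lowest in co-detection (1 of these is not reported here) and the 5 most alike in pattern. The gene, the lists and the rules were chosen with earlier results of these data known. Python 3.11.15, numpy 2.4.6, pandas 2.3.3, scipy 1.17.1 and matplotlib 3.10.9 were used.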

Additional observations from a re-analysis of the deposited data

How the results depend on the processing

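No paired analysis was possible because the cell numbers only name cells and no result comes from a test. Over classes A to D the share differences from wild type were 18.4 points in Flvcr-deleted and 29.8 points in EPO-treated cells, and the level differences 1.06 and 1.79 on the log2 scale, with Flvcr-deleted minus EPO-treated at -0.73. Counting any RPKM above 0 as detected put the share of cells at 41.7% in Flvcr-deleted and 61.3% in EPO-treated cells, and the differences at 44.4 and 51.3 points. The level differences were 1.96 and 3.00 with a pseudocount of 0.1, and 0.47 and 0.82 with 10. Without class A, the EPO-treated level difference was 2.38, and Flvcr-deleted minus EPO-treated was -1.43. Without EPO-treated class C cells, a choice made after seeing the data, the EPO-treated differences were 1.04 on the log2 scale and 15.6 points, which ends its call at 20 points. The Flvcr-deleted difference lay above the 20-point mark without class A (22.6 points), without class A cells of suffix d (23.9 points), among cells with 1000 to 2000 genes (25.0 points) and with scaling to 1 RPKM sum without globins (22.0 points). It stayed below that mark at 10 RPKM (16.7 points), with every cell weighted alike (18.75 points) and with scaling to 1 RPKM sum with globins kept (13.1 points). All other share and level values moved by less than their interval or 0.5 on the log2 scale, including those without SCP6 cells.

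Co-detected genes numbered 107 higher and 207 lower, against 278 and 120 with any RPKM above 0, 50 and 376 at 10 RPKM, 186 and 68 over all classes, 297 higher in cells with at least 1000 genes, and, as choices made after seeing the data, 612 higher in classes C and D, and 36 and 73 where each group had to pass 20 points. With 1 group asked for alone, which admits more genes by construction, the counts were 449 and 347 in Flvcr-deleted and 348 and 863 in EPO-treated cells. Tyms turned to 2.44 points above 0 RPKM, Sec62 to 4.00 points at 10 RPKM, and Cish was at -21.6 points in Flvcr-deleted cells alone. Hsp90b1 was at 15.5 points over all classes and Klf3 at 6.67 points in classes C and D. The cause was not tested. Fam132b had 1 row, so no other row could be tried. With 1 sample a group and few positive cells, differences between classes within a group could not be resolved at this depth.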
